A study of Mus musculus with 9 samples.

Results

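The cytosolic ribosomal protein genes were followed across 6 chromatin immunoprecipitation (ChIP-seq) libraries of mouse pancreatic endocrine cell lines. The deposited table lists 17641 genomic windows, each assigned to a gene. A window was taken as a member when its gene is protein-coding and carries a symbol of the Rpl, Rps, Rplp0 to Rplp2 or Rpsa series, and when it lies within 1 kb of the gene start. This gave 64 windows at 62 genes, 26 of the small subunit (Rps series and Rpsa) and 38 of the large subunit (Rpl and Rplp series), on 18 chromosomes. All 64 are 401 bp wide, and 2 genes, Rpl36a among them, have 2 windows each. The rule uses gene names and positions only. A gene without a window in the deposited table could not become a member.

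The libraries came from alphaTC1 cells, a line of murine alpha cells, that carried an empty vector (EV, n = 2), from alphaTC1 cells that carried an shRNA against Smndc1 (Smndc1 knockdown, n = 2), both transduced 5 days earlier, and from betaTC3 cells, a line of murine beta cells for which the labels list no treatment (n = 2). Smndc1 is a splicing factor related to SMN. These chromatin libraries do not check the knockdown itself. Each group also has 1 input sample, not analysed here. Each cell type is thus represented by a single line. Separate cultures for the replicates are not stated in the labels, and the p-values cover no more than the variation among these libraries, which may be technical.

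Each ribosome holds a small subunit, which reads the mRNA, and a large subunit, which joins the amino acids, and nearly every protein of both is encoded by a single expressed gene. Ribosomal protein genes are among the most strongly transcribed genes of dividing cells, and their promoters are nucleosome-poor and open in nearly every cell type. Their transcripts begin at a C inside a short run of pyrimidines, the TOP (terminal oligopyrimidine) motif, through which mTORC1 controls their translation. H3K9me3, trimethylated lysine 9 of histone H3, is known from silent heterochromatin and is not usual at active promoters.

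The labels name an antibody against H3K9me3, while 10256 of the 17641 windows lie within 1 kb of the start of a protein-coding gene, those of the ribosomal proteins among them. The members' levels are therefore reported as signal of the libraries labelled H3K9me3, with no statement about the modification. Values are in scaled reads: every deposited value is a whole number of reads multiplied by a single factor per library. The libraries held 4530066 to 9924487 reads in all windows, of which 33976 to 69158 lay in the 64 member windows, 0.697 to 0.768% in each library. Of 5 start windows of alpha cell markers, 4 were called lower and 1 higher in betaTC3 than in EV by limma. Irx1, an alpha cell transcription factor, had 1171 ± 26.7 scaled reads in EV and 0.399 ± 0.565 in betaTC3 (SD, n = 2), and the higher one was Gc, the vitamin D binding protein (0 in both EV libraries and 40.3 ± 6.22). Of 6 of beta cell markers, 5 were called higher. Over all windows, 55.2% were called in this comparison (22.1% higher, 33.2% lower). Pdx1, a beta cell transcription factor, had 2.65 ± 3.74 and 1835 ± 8.29. The one not called on the deposited scale was Nkx6-1 (1099 ± 43 and 1179 ± 61.7). With libraries centred on all windows, all 6 were called higher, beside 66.2% of all windows called. Of the marker lists for other cell types, those for fibroblasts and endothelium, immune cells and hepatocytes had no start window. The 2 start windows of the acinar and duct list summed to 665 to 725 scaled reads in EV, 548 to 654 in the knockdown and 9.52 to 12.8 in betaTC3, and the only one of the delta and PP cell list to 0 to 2.65, 1.19 to 1.4 and 93.3 to 107. Their part in the members' differences between lines was not tested.

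Most member windows were centred inside the genes; exon and intron bounds were not used here. Window centres were a median of 410.5 bp downstream of the gene start (quartiles 301 and 483 bp), against 272 bp (176 and 397 bp) for all 10256 windows within 1 kb of protein-coding gene starts. Of the 64, 60 were centred downstream and 4 upstream, among them those of Rpl18 (-386 bp) and Rps3 (-231 bp) and the second window of Rpl36a (-292 bp). The window nearest to the 1 kb limit belonged to Rps14, with its edge 689 bp from the start (group means of 395 to 483 scaled reads), and the nearest beyond it to Rps10, at 6193 bp (39.3 to 62.2).

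**Figure D1:**
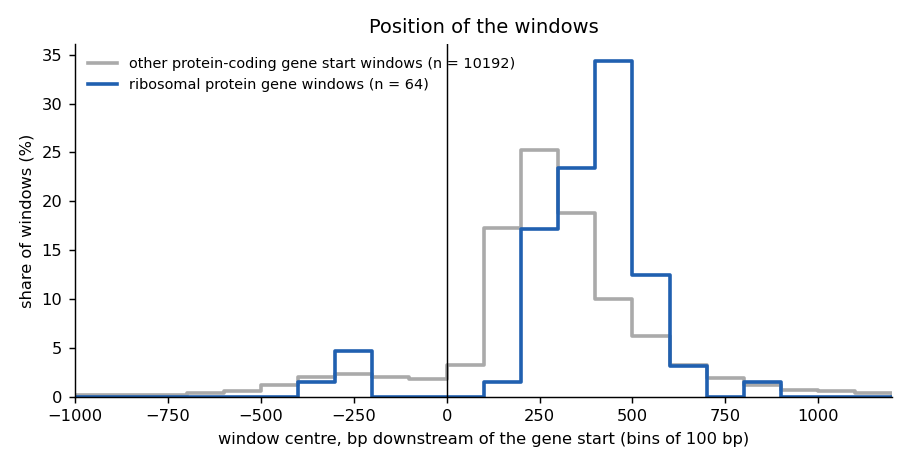
Share of windows (y axis, percent) by the distance of the window centre from the gene start (x axis, bp, bins of 100 bp) for the 64 ribosomal protein gene windows (blue) and the other 10192 windows within 1 kb of protein-coding gene starts (grey). The blue line peaks between 400 and 500 bp downstream, beyond the grey peak between 200 and 300 bp, and a small blue group of 4 windows lies upstream.

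The peaks that the authors called separately in each library reached further than the windows. A peak of at least 1 bp overlap lay over 62 of 64 members (96.9%) in all 6 lists, against 85.7% of all windows within 1 kb of protein-coding gene starts. The exceptions were the upstream windows of Rps3, with a peak in the 4 alphaTC1 lists and in neither betaTC3 list, and of Rpl36a, which lacked a peak in 1 betaTC3 list. Member peaks had a median width of 1370.5 to 1893 bp, against 1129 to 1287 bp for whole lists, and their median summit lay 378 to 424 bp downstream of the start. By the authors' −log10 q-value, the median member stood at the 78.7th to 88th percentile of its list. The annotated start itself lay inside a peak at 40 to 49 of the 62 genes, depending on the library.

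Because these peaks cover the start of most members, 5 promoters are shown: those of the member with the highest level (Rpl19), with the largest rise (Rpl15) and the largest fall (Rps3) in betaTC3 cells, and of Rpsa and Rplp0. Each runs from 200 bases before the RefSeq start to 20 bases into the transcript, 5′ to 3′ on the gene's strand, from RefSeq's annotation of GRCm38.p6, the build of the files. Capitals mark matches on either strand to 6 short strings, spelled out below: those of ETS factors such as GABP, of YY1 and of NRF1, the GC box of SP and KLF factors, the CCAAT box of NF-Y and the TATA box.
Rpl19 (chr11:98026510-98026729, plus strand): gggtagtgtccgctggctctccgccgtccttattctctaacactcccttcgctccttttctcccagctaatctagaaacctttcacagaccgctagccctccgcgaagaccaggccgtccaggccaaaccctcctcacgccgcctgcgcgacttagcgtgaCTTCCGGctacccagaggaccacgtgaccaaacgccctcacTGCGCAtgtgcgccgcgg
Rpl15 (chr14:18270967-18271186, minus strand): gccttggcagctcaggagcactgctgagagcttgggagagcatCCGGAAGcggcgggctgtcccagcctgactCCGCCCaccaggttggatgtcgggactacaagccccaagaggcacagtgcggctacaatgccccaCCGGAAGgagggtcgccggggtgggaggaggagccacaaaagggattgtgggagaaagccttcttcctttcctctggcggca
Rps3 (chr7:99483690-99483909, minus strand): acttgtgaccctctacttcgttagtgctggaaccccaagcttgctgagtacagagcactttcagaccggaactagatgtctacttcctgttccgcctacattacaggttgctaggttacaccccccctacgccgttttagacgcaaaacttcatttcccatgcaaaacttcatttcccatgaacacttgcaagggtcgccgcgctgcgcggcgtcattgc
Rpsa (chr9:120127566-120127785, plus strand): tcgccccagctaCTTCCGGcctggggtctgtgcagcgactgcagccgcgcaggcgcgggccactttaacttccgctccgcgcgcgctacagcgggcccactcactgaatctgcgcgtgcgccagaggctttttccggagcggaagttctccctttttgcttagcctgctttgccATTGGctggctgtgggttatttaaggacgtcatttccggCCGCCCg
Rplp0 (chr5:115559267-115559486, plus strand): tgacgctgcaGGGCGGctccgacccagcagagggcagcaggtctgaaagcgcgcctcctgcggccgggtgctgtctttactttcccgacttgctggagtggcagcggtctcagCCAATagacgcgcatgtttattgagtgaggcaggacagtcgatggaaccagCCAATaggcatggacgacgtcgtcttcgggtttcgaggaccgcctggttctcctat
The Rpl19 promoter held an ETS match and an NRF1 match, and that of Rpl15 held ETS matches and a GC box. Rpsa had all of ETS, GC box and CCAAT matches and Rplp0 a GC box and CCAAT matches, while none of the 6 motifs was found in the stretch shown for Rps3. None of the 5 held a TATA box match. A match is a string of letters, not a measured binding site.

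RefSeq's table held promoters of 300 bases for 50 of the 62 member genes, taking the start nearest to that in the files. The ETS string, CCGGAAG, was present in 40% of them, against 18.9% of 7898 genes with a window within 1 kb of the start and 8.86% of all 32851 promoters in the table. The YY1 string, AAGATGG, was present in 16%, 7.1% and 6.34% of these groups. The NRF1 string, TGCGCA, was found in 20%, 15.6% and 7.76%. The GC box, GGGCGG, was found in 60%, 70% and 35.7%. The CCAAT box, CCAAT, had shares of 32%, 39.7% and 37.4%. For the TATA box, TATAAA, they were 10%, 6.24% and 13.6%. Matches to different motifs overlapped in a single member promoter, between a GC box and a CCAAT box. A run of at least 8 C or T letters within 5 bases of the start, a plain reading of the TOP motif, occurred in 38% of member promoters, 9.37% of start-window genes and 9.38% of all promoters. In CpG dinucleotides, members and start-window genes both had a median of 22 per promoter, against 7 in all promoters. Across the 50 genes, the CpG number and the mean log2 level had a Pearson r of 0.12 and a Spearman rho of 0.12, a description over genes that share the same 6 libraries.

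Member windows were of high but not extreme level. The median member had 814 and 882 scaled reads in the EV libraries, 605 and 733 in the knockdown libraries and 912 and 869.8 in the betaTC3 libraries, against 225 to 325 for all windows. In each library the median member ranked between the 67.6th and the 79.8th percentile of windows within 1 kb of protein-coding gene starts, and 51 to 53 of 64 lay above the median of those windows. No member was at 0 in any library, while 39 to 490 of the windows near protein-coding gene starts were.

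**Figure D2:**
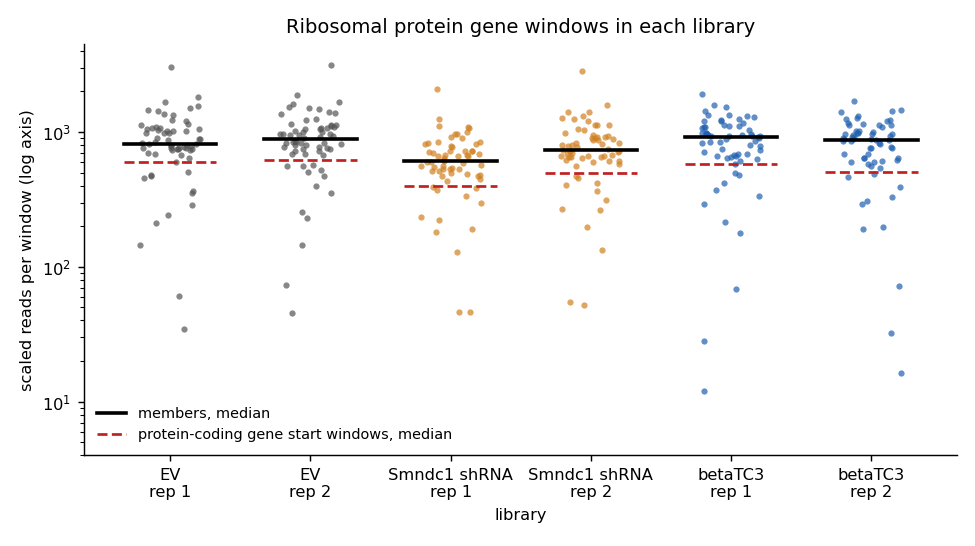
Scaled reads (y axis, log scale) of the 64 member windows (points) in each of the 6 libraries (x axis), with the median of the members (black line) and of all windows within 1 kb of protein-coding gene starts (dashed line). The member median lies above the dashed line in every library, and the lowest points are the upstream windows of Rps3 and Rpl36a.

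The highest member was Rpl19, a large-subunit protein whose gene start lies on chromosome 11 and whose window spans chr11:98027063-98027463. It had 3013 and 3122 scaled reads in EV, 2074 and 2854 in the knockdown and 1921 and 1692 in betaTC3. Next came Rps21, Rpl27a, Rpl22 and Rps19, proteins of both subunits. Rps21 (chr2:180257379-180257779) had 1809 and 1894 in EV, 1248 and 1581 in the knockdown and 1088 and 1137 in betaTC3. Rpl27a (chr7:109519286-109519686) had 1448 and 1614, 1118 and 1279, and 1584 and 1459.8. Rpl19 led in all 6 libraries, but Rpl27a exceeded Rps21 in both betaTC3 libraries and Rps21 exceeded Rpl27a in both EV libraries.

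The 5 lowest members included the upstream windows of Rps3 and Rpl36a, the downstream window of Rpl36a, and Rpl35. Rpl35, a protein near the exit of the nascent chain tunnel, had 211 and 229 scaled reads in EV, 191 and 196 in the knockdown and 178 and 191 in betaTC3. Its window was centred 590 bp downstream of the start. The peak summits lay at 205 and 215 bp in EV, 195 and 224 in the knockdown and 908 and 202 in betaTC3. These peaks stood at list percentiles 77 and 77.9 by q-value in EV, 86.9 and 83.4 in the knockdown and 54.1 and 59.8 in betaTC3. The part of window position in the low level of Rpl35 was not tested. At Rpl36a, the window 545 bp downstream had 241 and 255 scaled reads in EV where the window 292 bp upstream had 60.9 and 73.7. The windows of this gene thus differed several-fold in level, and its lowest value came from the far side of the start.

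The name rule covers 84 genes in RefSeq, and the 22 without a member window were examined as well. Of these, 18 have a window over the gene that the table assigns to a different gene, 10 of them to a snoRNA or miRNA gene and 8 to a gene of another kind. No 1 kb limit was applied to these 18. The windows over Rpl17 and Rps2 lie more than 1 kb from both ends of the gene. All 18 had a peak in all 6 lists, with group means of 244 to 1907 scaled reads and a median of 1006 in EV. Snora21 thus carries the window of Rpl23 (1907 ± 34.5 in EV), Clhc1 that of Rps27a (1874 ± 47.1) and Snora7a that of Rpl32 (1395 ± 8.7). Ribosomal protein genes often host snoRNAs, the guide RNAs of rRNA modification, in their introns: 35.7% of the 84 genes do, against 1.7% of all protein-coding genes in RefSeq. The 4 genes with neither window nor peak were Rpl3l, Rpl10l, Rpl39l and Rpl32l. The first is the muscle form of Rpl3, and the next pair are testis-enriched copies of X-linked genes.

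By the median absolute difference, replicates of the members were closer in EV and betaTC3 than in the knockdown. The median absolute log2 difference between the 2 libraries of a group was 0.0824 in EV, 0.322 in the knockdown and 0.084 in betaTC3. After the median difference of all windows was removed, it was 0.0642, 0.102 and 0.0888. The 6212 windows of like level (between the 10th and the 90th percentile of the members) had 0.072, 0.103 and 0.119 on the same scale. In the knockdown, the second library was higher than the first by a median log2 of 0.32 over the members and over windows of like level. Over all windows this step was 0.25. The SD of the replicate log2 differences over members was 0.102 in EV, 0.126 in the knockdown and 0.158 in betaTC3. The largest differences within EV were those of Rps3 upstream (34.4 and 45.3), Rpl7 (364 and 472) and Rps4x (287 and 353). Within the knockdown they were Rps19 (850.4 and 1304), Rplp0 (447 and 662) and Rpl36a downstream (182 and 268). In betaTC3 they were Rps14 (493 and 308), Rpsa (1100.5 and 762) and Rps3 upstream (12 and 16.2). Read numbers are smallest at Rps3, where the betaTC3 libraries hold 15 and 17 reads.

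As a scale for the libraries, the members and all windows were close in the knockdown and less so in betaTC3, where the answer depended on the summary. By the median over windows of the log2 difference from the EV mean, the members shifted by -0.51 and -0.21 in the knockdown libraries and by -0.02 and -0.11 in the betaTC3 libraries. Over all windows these shifts were -0.49, -0.24, -0.09 and -0.20. By the mean in place of the median, the betaTC3 libraries shifted by -0.11 and -0.17 over the members and by 0.15 and 0.07 over all windows, in opposite directions. The library medians themselves were 9.67 and 9.79 in EV and 9.84 and 9.77 in betaTC3 for the members (log2 scaled reads), and 8.30 and 8.35 against 8.20 and 8.08 for all windows. Both sets put the first knockdown library lowest. Scaling on the members in place of all windows did change calls between the lines, as given with that comparison.

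**Figure D3:**
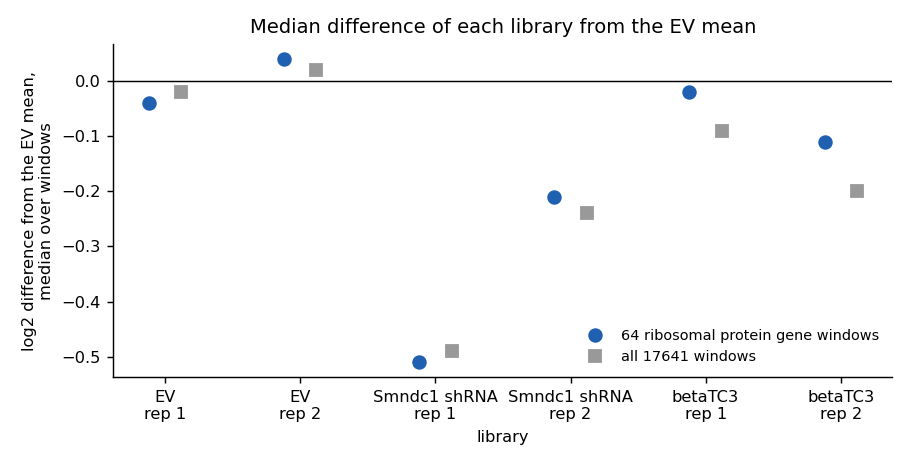
Median over windows of the log2 difference of each library from the mean of the EV libraries (y axis), for the 64 members (circles) and all 17641 windows (squares), for the 6 libraries (x axis). Both symbols lie lowest in the first knockdown library (-0.51 and -0.49), and the circles lie above the squares in the betaTC3 libraries.

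The first comparison asked whether signal at ribosomal protein genes differed after Smndc1 knockdown. In bulk chromatin, fewer cells with signal and less signal per cell cannot be told apart. Of the 64 members, 63 had a lower mean in the knockdown than in EV. The members' median log2 difference was -0.36, beside -0.37 for all windows. Larger median falls were seen over windows of like level (-0.44) and over all windows within 1 kb of protein-coding gene starts (-0.41). The members' differences were uniform, with an SD of 0.13, against 0.142 over windows of like level and 0.495 over all windows. No member was called by limma at an adjusted p below 0.05, and no window of the table was (percent called 0). At an unadjusted p below 0.05, limma counted 23 of 64 members, 3419 of 6212 windows of like level and 6169 of all 17641 windows. After adjustment, edgeR called no window. DESeq2 called 10 of the 12169 windows to which it gave an adjusted p (0.0822%, with 0.0247% higher and 0.0575% lower). None of those was a member.

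The members with the smallest adjusted p were Rpl34, Rpl37a, Rpl15, Rps13 and Rpl13, 4 large-subunit proteins and 1 small-subunit protein. Rpl34 had 875 and 933 scaled reads in EV and 639 and 702 in the knockdown, a log2 difference of -0.43 (SE 0.13, limma adjusted p = 0.118). Rps13 had 1045 and 994 against 666 and 806 (-0.47, SE 0.15, limma adjusted p = 0.119). In both, each knockdown library lay below each EV library. The same held for 58 of the 64 members, but also for 64.6% of all windows, and the groups overlapped at 5 members. At the upstream window of Rps3, as at 6.85% of all windows, both knockdown libraries lay higher, with 34.4 and 45.3 in EV and 46.6 and 51.7 in the knockdown (0.31, SE 0.28, limma adjusted p = 0.414).

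With each library centred on all windows, the members' median difference was 0.01, beside -0.07 over windows of like level. Again no member was called. The count rested on the second knockdown library: without it, 46 members and 6281 windows (35.6%; 1.38% higher, 34.2% lower) were called by limma, all 46 lower. The step between the knockdown libraries moved with this count, and its part in the result was not tested.

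The roles of the members did not separate in this comparison. Small-subunit windows had a median log2 difference of -0.37 and large-subunit windows of -0.36. The stalk proteins Rplp0, Rplp1 and Rplp2, which recruit elongation factors, had differences of -0.54, -0.36 and -0.32. Rpl5 and Rpl11, which with 5S rRNA form the particle that binds Mdm2 when ribosome assembly fails, had -0.37 and -0.30. Rpsa, the laminin receptor precursor, had -0.52 (SE 0.23). In the 18 windows assigned to other genes the median was -0.41, with none called.

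The second comparison asked how the lines differ. Between betaTC3 and EV, limma called 20 of 64 members (31.2%), of which 4 rose and 16 fell in betaTC3, whereas 55.2% of all windows were called (22.1% higher, 33.2% lower). Of the 6212 windows of like level, 32.1% were called (401 higher, 1594 lower). The members' median log2 difference was -0.14, beside -0.11 for windows of like level and -0.13 for all windows. Of the members, 6 (9.38%) differed over 2-fold, against 8.27% of windows of like level and 39.2% of all windows. The groups did not overlap at 23 members that were higher and 31 that were lower in betaTC3, and the background for these counts was 34.1% and 48.7%.

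The 4 higher members were Rpl15 of the large subunit and Rps7, Rps23 and Rps24 of the small subunit. Rpl15, whose promoter is shown above and which is mutated in some families with Diamond-Blackfan anaemia, had 503 and 556 scaled reads in EV, 371 and 416 in the knockdown and 1106 and 1099 in betaTC3. Both betaTC3 libraries stood well above all 4 alphaTC1 libraries. The rise was 1.06 in log2 (SE 0.13, 2.08-fold, limma adjusted p = 5.80e-04) at chr14:18270379-18270779.

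Rps7, another Diamond-Blackfan gene, had 843 and 846 in EV, 670.1 and 727 in the knockdown and 1439 and 1428 in betaTC3, a rise of 0.76 (SE 0.13, limma adjusted p = 0.00263). Rps23, which reaches into the decoding centre, had 597 and 572, 489.7 and 577, and 1091 and 959 (0.81, SE 0.15, limma adjusted p = 0.00331). Rps24 had 478 and 556, 336 and 469.6, and 931 and 889.8 (0.82, SE 0.19, limma adjusted p = 0.00963). At each of these genes the betaTC3 libraries were the highest pair, with no overlap. The call for Rps24 was lost without EV replicate 1 (limma adjusted p = 0.0893) or without either betaTC3 library (0.102 and 0.0822).

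Among the 16 lower members, the 4 largest falls were the 4 windows centred upstream of the start. Rps3, which lines the mRNA entry channel, had 34.4 and 45.3 scaled reads in EV, 46.6 and 51.7 in the knockdown and 12 and 16.2 in betaTC3 (-1.44, SE 0.28, limma adjusted p = 0.00451). Rpl18, upstream window, had 647 and 684, 436 and 556, and 295 and 294 (-1.17, SE 0.15, limma adjusted p = 7.22e-04). That of Rpl36a (-1.13, SE 0.23, limma adjusted p = 0.00621) likewise lay below both EV libraries in both betaTC3 libraries.

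The downstream window of Rpl36a had 241 and 255 scaled reads in EV against 336 and 329 in betaTC3, a difference of 0.42 (SE 0.20, limma adjusted p = 0.117). The window 574 bp downstream of the Rps3 start is assigned to Snord15a, a snoRNA in an Rps3 intron. It had 798 ± 49.6 in EV and 538 ± 19.4 in betaTC3 and fell by 0.57 on the log2 scale (SE 0.15, limma adjusted p = 0.0158), a call lost without any 1 of the EV and betaTC3 libraries (0.0727 to 0.132). Whether upstream and downstream windows differ in their change was not tested. Without the 4 upstream windows, 16 of 60 members were called, 4 higher and 12 lower.

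Of the downstream windows, Rpl7, a large-subunit protein, fell most, from 364 and 472 scaled reads in EV to 216 and 197 in betaTC3; it fell by 1.00 on the log2 scale (SE 0.18, limma adjusted p = 0.00336). Rpl38, the gene of the Tail-short mouse, went from 1662 and 1657 to 863 and 887 (-0.92, SE 0.17, limma adjusted p = 0.00367). Rpl27 followed, from 1513 and 1525 to 846 and 822 (-0.86, SE 0.17, limma adjusted p = 0.00533). In these 3 genes the betaTC3 libraries were the lowest of all 6. Rpl31 (-0.80) and Rpl34 (-0.62) also fell, as did Rpl19 (-0.77, limma adjusted p = 0.03) and Rps21 (-0.73, 0.0117). A further 4, all on chromosome 7, fell by 0.45 to 0.60 on the log2 scale.

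With 2 libraries per group, many of these calls needed all of the libraries of both lines. With any 1 of the 4 EV and betaTC3 libraries left out, limma no longer called Rpl27 (adjusted p of 0.0544 to 0.0625), Rpl19 (0.152 to 0.227), Rps21 (0.0773 to 0.113) or any of the 4 on chromosome 7. Rpl7 was lost without betaTC3 replicate 2 (0.0558) and Rpl38 without betaTC3 replicate 1 (0.0537). Rpl31 was lost without EV replicate 2 (0.0639) or betaTC3 replicate 2 (0.0638), and Rpl34 without EV replicate 1 (0.0502) or 2 (0.079). The calls of Rpl15, Rps7 and Rps23 and of the upstream windows of Rps3, Rpl18 and Rpl36a were kept with each library left out in turn.

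**Figure D4:**
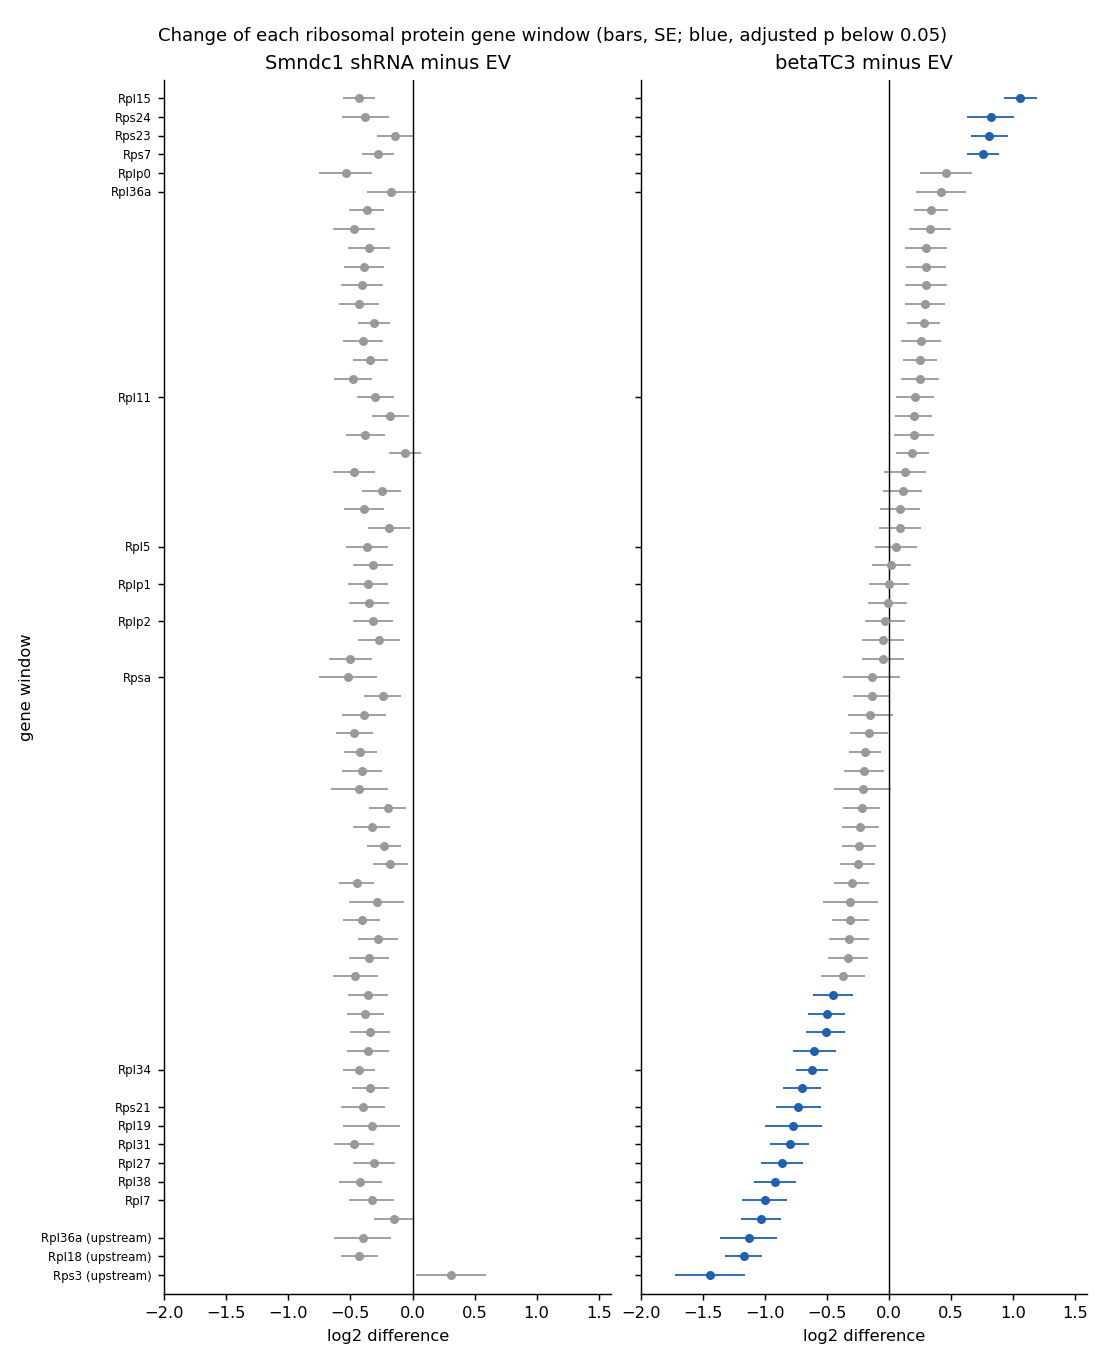
Log2 difference (x axis) of each of the 64 member windows (y axis, ordered by the right panel, with names for windows described in the text) between Smndc1 knockdown and EV (left) and between betaTC3 and EV (right), with bars for the SE of the limma fit and blue for an adjusted p below 0.05. The left points lie in a narrow band around the median of -0.36 and none is blue, while the right points run from -1.44 (Rps3, upstream) to 1.06 (Rpl15), with 20 in blue.

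By role, no window of the P stalk or of the 5S particle was called in this comparison on the deposited scale, but some were on others. Rplp0, often used as a reference gene, had 805 and 776 in EV and 1168 and 1017 in betaTC3 (0.46, SE 0.21, limma adjusted p = 0.102). Rplp1 (0.00) and Rplp2 (-0.03) had nearly equal means, as did Rpl5 (0.06), and Rpl11 differed by 0.21, each with an SE of 0.15 to 0.17. Rpsa had 1021 and 993 in EV and 1100.5 and 762 in betaTC3, so that the betaTC3 libraries enclosed the EV pair (-0.14, SE 0.23, limma adjusted p = 0.64). With libraries centred on all windows, limma called Rplp0 (0.64, adjusted p = 0.0024), Rpl11 (0.39, adjusted p = 0.00241) and Rpl5 (0.24, adjusted p = 0.0437) higher in betaTC3, and edgeR and DESeq2 called the same 3. Centred on the members, Rplp0 was called (0.39, limma adjusted p = 0.0282) and Rpl5 turned to -0.01. Rplp0 was also called when the knockdown libraries were left out of the fit (limma adjusted p = 0.0181). The direction at Rpsa and Rplp2 turned with centring on all windows (0.04 and 0.15).

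Rps27a, which encodes a ribosomal protein fused to ubiquitin, was read from the window assigned to Clhc1. It fell from 1874 ± 47.1 scaled reads in EV to 919 ± 12.9 in betaTC3 (-1.03, SE 0.15, limma adjusted p = 0.00137). The window (chr11:29547360-29547760) lies inside the bounds of Rps27a but is assigned to Clhc1, so its signal was not attributed to either gene. Of the 18 such windows, that over Rpl23 also fell (-0.89, limma adjusted p = 0.00314) and that over Rpl17 rose (0.62, limma adjusted p = 0.0089). The median of the 18 was -0.02. The call of Rpl17 was lost without EV replicate 1 or 2 (limma adjusted p = 0.0782 and 0.0766).

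The paralogs differed in whether they had a deposited window. Rpl22l1, Rps27l and Rpl7l1 had windows of ordinary level and were not called between the lines on the deposited scale (0.20, -0.20 and -0.14). Rpl3l, Rpl10l and Rpl39l had neither window nor peak, and reads over genes without a window were not counted. Rpl22l1 was called higher with libraries centred on all windows (0.38, limma adjusted p = 0.00514) and by edgeR and DESeq2 (0.37 and 0.43), and Rps27l lower with libraries centred on the members (-0.27, limma adjusted p = 0.0383). Rps4l, annotated as a transcribed pseudogene in the files and so no member, had 2.88 ± 2.2 scaled reads in EV, 1.19 ± 1.69 in the knockdown and 172 ± 12.4 in betaTC3. It rose in betaTC3 by 5.61 on the scale of log2(scaled reads + 1) (SE 0.65, limma adjusted p = 4.44e-04). Its EV and knockdown values amount to a few reads per library.

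The balance of higher and lower calls depended on the scale. Centred on the median of all windows, 25 members were called higher and 16 lower by limma (all windows 66.2%, of which 34.3% higher and 31.9% lower). With TMM on the recovered reads, edgeR likewise gave 25 and 16 (all windows 67.8%, 35.3% higher and 32.6% lower). Centred on the members themselves, 11 were higher and 27 lower (all windows 66.4%, 23.8% higher and 42.7% lower). The all-window centring moved the members' median difference to 0.04. Centring on the members made each library's median member level equal. It moved the members' median difference further below -0.14, its value on the deposited scale. Rpl15, Rps7, Rps23 and Rps24 rose and Rpl7, Rpl38 and Rpl27 fell under each of these scales.

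Between betaTC3 and EV, the members' differences were set beside those of nearby windows. How closely windows other than the members track their own neighbours was not measured. For each member, the median log2 difference was taken over the nearest windows, up to 20 on either side. These were no members and had a mean above 100 scaled reads. The comparison was chosen after the members' values had been seen. Members and neighbours had a Pearson r of 0.78 and a Spearman rho of 0.80 over the 64 windows (0.86 and 0.85 over the 60 downstream windows). All points share the same libraries, and members close to each other share neighbours. The SD of the members' differences was 0.51 before and 0.32 after subtracting the neighbours' median, and 56 of 64 lay within 0.5 of it. Members lay above their neighbours by a median of 0.14 (0.15 over the 60 downstream windows). In the knockdown comparison, where neighbour medians spanned only -0.53 to -0.35, r was 0.05.

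On chromosome 14, Rpl15 and Rps24 had a median of 0.94, beside 0.64 for the chromosome's 354 other windows above 100 scaled reads. Both had neighbours that were also higher in betaTC3, by 0.79 and 0.55. On chromosome 11, the median was -0.82 over Rpl38, Rpl27, Rpl19 and Rpl26, beside -0.73 for 951 other windows. Rpl26, at chr11:68901778-68902178, stood apart from the other three with -0.23, and its neighbours with -0.37 against -0.91 to -1.10.

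Chromosome 7 carried 15 of the 64 windows and 8 of the 16 that fell. Toward its far end, at Rpl27a, Rps13, Rps15a and Rplp2, the differences were -0.01, -0.16, -0.05 and -0.03, with neighbours at -0.20, -0.22, -0.22 and -0.10. At the other end, nearer to the centromere, Rps16 had -0.51 with neighbours at -0.79. At the same end, Rpl28 and Rps19 had only -0.22 and -0.21 with neighbours at -0.84 and -0.83. The neighbours thus fell into a lower and a higher stretch, which these members followed in part. The part of such regional differences in the members' changes was not tested, and the inputs were not analysed here.

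The widest departures from the neighbours went in both directions. Rpl36a upstream was lower than its neighbours by 1.22 on the log2 scale (minus neighbours -1.22), Rps3 upstream by 0.76 (-0.76) and Rps14 by 0.63 (-0.63). Rpsa (0.68), Rps19 (0.63), Rpl28 (0.62) and Rps23 (0.61) lay above theirs. Rps14 and Rpsa are also the members with the widest replicate gaps in betaTC3. Rps23 is the only one of the 4 higher members on a chromosome whose median was near 0 (0.01 on chromosome 13).

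**Figure D5:**
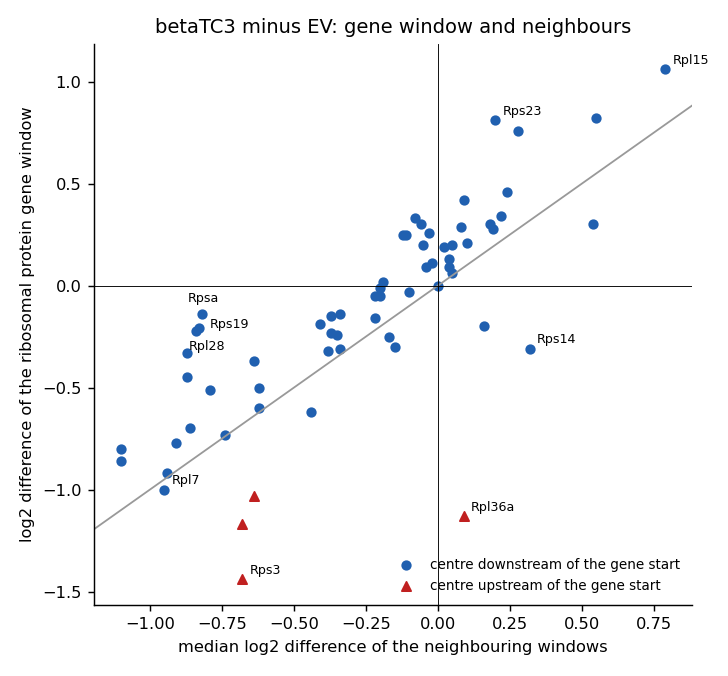
Log2 difference between betaTC3 and EV of each member window (y axis) against the median of its neighbouring windows (x axis), with the line of equality in grey. The points rise along the line (Pearson r 0.78, n = 64) but lie above it by a median of 0.14. The upstream windows (triangles) lie below it.

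The comparison of betaTC3 and the knockdown shares the betaTC3 libraries with the comparison above. Here limma called 27 of 64 members (42.2%), of which 20 rose and 7 fell. Of the 6212 windows of like level, 46.3% were called (2234 higher, 644 lower). Of all windows, 60.6% were (36.6% higher, 24% lower). Rpl15 (1.48, SE 0.13, limma adjusted p = 1.27e-04), Rps24 (1.20), Rps7 (1.04) and Rps23 (0.94) again rose. Rplp0 rose as well, from 447 and 662 scaled reads in the knockdown to 1168 and 1017 in betaTC3 (1.00, SE 0.21, limma adjusted p = 0.00629). The 7 that fell included the upstream windows of Rps3 (-1.75), Rpl18 (-0.74) and Rpl36a (-0.73) and the windows of Rpl7 (-0.67), Rpl27 (-0.55) and Rpl38 (-0.50). Leaving out 1 library ended the limma calls of Rplp0 and of Rpl18 upstream (either betaTC3 library), of Rpl7 (either betaTC3 library or knockdown replicate 2), of Rpl27 and Rpl38 (any EV or betaTC3 library) and of Rpl36a upstream (any of the 6), with adjusted p from 0.0523 to 0.174. With libraries centred on all windows, 22 were higher and 18 lower (all windows 69.3%, 35.9% higher and 33.4% lower).

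Other genes of the translation machinery were counted for context, again without a called window in the knockdown comparison. Between betaTC3 and EV, of 36 start windows at translation factor genes none was called higher and 4 lower, with Eif3k at -0.78 and Eif1 at -0.75, both initiation factors, and a median of 0.02. This balance turned with libraries centred on all windows, which gave 15 higher and 3 lower by limma and a median of 0.20. Of 32 at ribosome biogenesis genes, 12 fell and none rose, with a median of -0.31 (centred on all windows, 2 higher, 12 lower and -0.13). The largest falls there were at Pes1 (1849.9 ± 34.2 scaled reads in EV, 724 ± 15.5 in betaTC3, -1.35), a 60S assembly factor, at Npm1 (3211 ± 99.5 and 1427 ± 8.83, -1.17), the nucleolar chaperone nucleophosmin, and at Nop2 (-1.15), an rRNA methyltransferase.

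Of 10 windows at RNA polymerase I genes, 1 rose and 4 fell (centred on all windows, 2 and 5). The riser was Taf1b (1.24), part of the polymerase I selectivity factor. Of 11 windows at mTORC1 and TOP control genes, 1 fell, that of Tsc2 (-0.41), whereas 2 were higher and 3 lower with libraries centred on all windows. Of 9 windows at common reference genes, B2m rose (104 ± 7.09 to 325 ± 9.54, 1.64) and Ppia fell (-0.71), and centring on all windows gave 3 higher and 2 lower. Among ribosomal protein genes whose symbols lie outside the name rule, Rpl36al rose (0.69, limma adjusted p = 0.0168), while Fau, a fusion with a ubiquitin-like protein, differed by 0.13 and was not called on the deposited scale (centred on all windows, 0.32, limma adjusted p = 0.0102). Leaving out any 1 EV or betaTC3 library ended the calls of Eif1, Tsc2 and Rpl36al, and leaving out some of them those of Eif3k, Npm1 and Ppia (limma adjusted p of 0.0506 to 0.239 over these 6 genes). These counts stand beside the 55.2% of all windows that were called.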

How the data were processed

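The 6 ChIP-seq libraries and 3 inputs of mouse cell lines were made with the NEBNext Ultra II kit, with single reads of 50 bp, per the labels' protocols. Bowtie2 2.4.1, Picard 2.19.2, MACS2 2.2.7.1 and mm10 (GRCm38) are named in the submitters' processing notes. The authors deposited 1 peak list per library, with a score, a ratio (fold over background), −log10 p-values and q-values, and a summit offset. They deposited 1 normalised signal value per library and window. In each library all values are whole multiples of a step within a tolerance of 0.001, and these whole numbers are taken as reads. The sources used here do not give the derivation of the factors or say if input was subtracted.

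Groups came from the labels. limma 3.58.1 (R 4.3.3) was fitted to log2(scaled reads + 1) over all 17641 windows and 6 libraries, with a mean per group and an intensity trend, and Benjamini-Hochberg adjustment. Here windows were called at an adjusted p below 0.05. edgeR 4.0.16 and DESeq2 1.42.0 on the recovered reads, other scales, pseudocounts and filters, a replicate block and leaving out each library were alternatives. The fit was tried on simulated reads with known changes and no step between replicate libraries, unlike the knockdown pair here. That trial therefore cannot vouch for the calls reported here. Levels, spread and scaling are descriptions. The precision is limited by 2 libraries per group. Named genes were the members of fixed role groups, up to 10 called members per direction and comparison with the smallest adjusted p (the 5 smallest where none was called), the 5 highest and lowest, and those with the widest replicate differences or lacking a peak. Some items these rules select are not reported here. At most 3 genes of each other list are named, by the size of their change. The members, lists and rules were chosen with earlier results of these data known. Replicate numbers were checked as pairs: same-numbered deviations correlated at -0.0079, 0.085 and -0.176, so they were not used as pairs.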

Additional observations from a re-analysis of the deposited data

How the results depend on the processing

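With 2 libraries per group, the counts of calls moved more than the differences. Leaving out 1 library at a time, the members called ranged from 0 to 46 in the knockdown comparison, from 9 to 33 between betaTC3 and EV, and from 8 to 40 between betaTC3 and the knockdown. The counts over all windows ranged from 0 to 6281, from 6983 to 10641 and from 6523 to 11055. The members' median log2 differences ranged from -0.51 to -0.21, from -0.14 to -0.02 and from 0.11 to 0.45. In the knockdown comparison only the fit without knockdown replicate 2 called members (46). Between betaTC3 and EV, 10 were called without EV replicate 1, 10 without EV replicate 2, 11 without betaTC3 replicate 1 and 9 without betaTC3 replicate 2, against 32 and 33 without the knockdown replicates. Between betaTC3 and the knockdown, 17 were called without either EV replicate, 8 without betaTC3 replicate 1 and 12 without betaTC3 replicate 2. A lone library is assumed to vary like the other groups.

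In the knockdown comparison, windows called over the whole table numbered 335 with a pseudocount of 0.1, 163 without the trend, 31 with libraries of those 2 groups alone and 10 by DESeq2. The members' median there was 0.01 centred on all windows, -0.02 centred on the members, 0.01 by edgeR and 0.00 by DESeq2. Between betaTC3 and EV, members called numbered 41 centred on all windows, 38 centred on the members, 32 with those 2 groups alone, 41 by edgeR and 40 by DESeq2. The median was 0.04, -0.21, 0.05 and 0.10 under both centrings, edgeR and DESeq2. Between betaTC3 and the knockdown it was 0.05 and -0.18 under the centrings and 0.04 by edgeR. The scaling of betaTC3 replicate 1 was -0.11 as a mean over members. The cause of these changes was not tested, beyond the centring itself.

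Between betaTC3 and EV, differences near 0 turned: Rpl7l1 (0.04 centred on all windows, 0.04 by edgeR, 0.09 by DESeq2), Rplp2 (0.15, 0.14 and 0.20), Rpsa (0.04, 0.05 and 0.11, and 0.13 without betaTC3 replicate 2) and Rps27l (0.03 by DESeq2). Rpl5 turned to -0.01 centred on the members and ranged from -0.00 (without EV replicate 1) to 0.12 with 1 library left out. Rplp1 turned to -0.07 centred on the members and ranged from -0.02 (without EV replicate 2) to 0.02, and Rpsa from -0.40 to 0.13, with 1 library left out. With the replicate block, members called numbered 0, 17 and 25 in the 3 comparisons, and the numbers are not pairs. After seeing the data, the members were also counted with the 18 windows assigned to other genes (0, 23 and 38 called) and without the 4 upstream windows (0, 16 and 23). Within 500 bp or 2 kb of the start, 63 and 64 windows were found. Peaks at members over the 6 lists numbered 381, or 380 covering 50% or more of the window and 353 at or above the list median of the −log10 q-value.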
